A study of Drosophila melanogaster with 11 samples.

Results

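Adult fat bodies of PGAM5 null flies were compared with those of wild-type flies, both raised with RU486 in the larval food. The comparison covered the 5005 genes of 15603 in the table (32.1%) that reached 10 FPKM in at least 1 of the 2 libraries, where FPKM is the number of sequenced fragments scaled to transcript length and to library size. Of these genes, 4169 reached that level in both libraries, 392 in the PGAM5 null library only and 444 in the wild-type library only. PGAM5 null animals came from a cross in which both the DaGeneSwitch and the UAS-dOTC parents carried the PGAM5 null allele. The animals called wild type came from DaGeneSwitch x UAS-dOTC without that allele. All animals of both genotypes therefore carried the RU486-inducible daughterless GeneSwitch driver, which acts throughout the body, and a transgene for ΔOTC, a form of human ornithine transcarbamylase that misfolds in the mitochondrial matrix. RU486 was given during larval life, and fat bodies were taken by hand from the abdomens of adults about a week after eclosion, with several flies pooled in each library. The matched libraries of both genotypes without RU486 were read beside them. Every condition had 1 library, so a difference has no replicate check, no p-value is given, and "higher" or "lower" is used of a gene only when its FPKM differed by 2-fold or more.

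PGAM5 is a mitochondrial protein phosphatase that, in flies, acts upstream of the kinase ASK1 (Pk92B in these tables) and of the JNK pathway when mitochondrial proteins misfold. JNK in turn can send the transcription factor FoxO to the nucleus, where it activates chaperone, metabolic and immune genes. The fat body is the fly's counterpart of liver and adipose tissue, the main source of yolk proteins, of circulating antimicrobial peptides and of stored lipid and glycogen. The comparison asks how the adult fat body differs between the genotypes long after the larval stress has ended. The null and wild-type animals came from different crosses, so the Pgam5 allele cannot be told apart from the rest of the genetic background, and no fat body library had RU486 without the ΔOTC transgene, so the drug and ΔOTC cannot be told apart.

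The libraries held an estimated 6140000 fragments for PGAM5 null and 7050000 for wild type after RU486, and 6620000 for null and 6470000 for wild type without it, read from the steps in which low FPKM values fall. A transcript of 1 kb at 10 FPKM then rests on 50.2 to 57.7 fragments in the 4 libraries. Each ratio below is PGAM5 null over wild type and carries, where a depth could be worked out, an exact conditional binomial interval at 95% that covers counting error only. The first line of the adult table calls it larval, but its sheet name and the study's description call it adult, and the adult yolk protein genes lead it. Markers of tissues that lie beside the fat body differed between the libraries after RU486. The Malpighian tubule list summed to 33.1 FPKM in null and 1009 FPKM in wild type. The eggshell and germline list summed to 5592 FPKM in null and 126 FPKM in wild type, the gut list to 831 FPKM in null and 215 FPKM in wild type, and the flight muscle list to 2352 FPKM in null and 1381 FPKM in wild type. None of the 22 male markers and none of the 11 neuronal markers reached 10 FPKM in either library.

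Pgam5 itself (FBgn0023517, X chromosome) was listed at 0 FPKM in the PGAM5 null library and 10.1 FPKM in the wild-type library after RU486, and at 0.841 FPKM in null and 11.8 FPKM in wild type without it. The larval fat bodies had 0.289 FPKM in null and 13.3 FPKM in wild type with RU486, and 0.577 FPKM in null and 16.8 FPKM in wild type without it. All 4 null libraries were thus below all 4 wild-type libraries, as the labels say. Against a floor of 3 fragments in the null library, Pgam5 was at least 19.02-fold lower in null adults after RU486. The 5 genes on each side of Pgam5 in the reference annotation were close to even, with deltaCOP, which encodes a coatomer subunit, at a ratio of 1.06, Vps26, a retromer subunit, at 1.05, Pex5, the peroxisomal import receptor, at 0.840 and CG14818 at 0.768. The remaining neighbour ratios were 1.23 for MED18, 1.35 for CG14817, 0.995 for CG14805 and 0.969 for CG14806. CG14803 (5.23 FPKM in null and 4.51 FPKM in wild type after RU486) and CG14814 (4.22 FPKM in null and 1.06 FPKM in wild type after RU486) were under the 10 FPKM limit, and the ratio of CG14814, 3.99, was the only neighbour past 2-fold.

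Across the 5005 genes, 252 (5.03%) were higher and 357 (7.13%) were lower in PGAM5 null adults after RU486, 609 (12.2%) in all. At 3-fold the counts were 147 higher (2.94%) and 243 lower (4.86%). The centre of the distribution was near even, with a median ratio of 0.971. On the log2(FPKM + 1) scale the median difference was -0.04 and the quartiles were -0.29 and 0.21. The outermost 5% of genes on each side lay below -1.40 and above 0.97. Low expression on 1 side was common among the called genes, since 179 of the 252 higher genes were under 10 FPKM in wild type and 253 of the 357 lower genes were under 10 FPKM in null. A counting interval could be given for 506 called genes, and for 505 of them it left out a ratio of 1. The intervals come from the same libraries as the calls, so at these depths this was nearly fixed by the 2-fold rule and is no separate check.

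**Figure D1:**
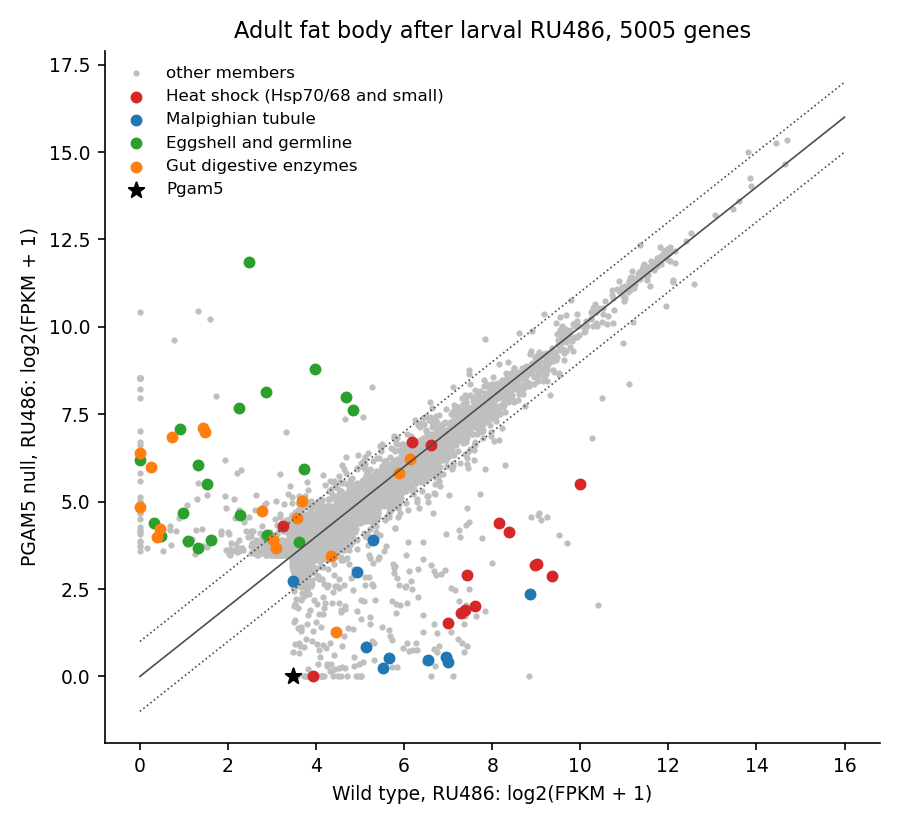
Each point is 1 of 5005 genes, with the wild-type level after RU486 on the horizontal axis and the PGAM5 null level on the vertical axis, both as log2(FPKM + 1), the solid line marking equal values and the dotted lines a difference of 1 on that scale. Heat shock genes (red) and Malpighian tubule genes (blue) lie mostly below the lines, eggshell and germline genes (green) lie mostly above, most gut digestive enzyme genes (orange) lie above, and Pgam5 (star) sits at 0 FPKM in null.

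The same 5005 genes were then read in the adults that had never received RU486, a pair of libraries that shares none with the first. There, 150 genes (3.0%) were higher and 447 (8.93%) lower in PGAM5 null than in wild type. Of the genes lower after RU486, 237 (4.74% of all) were also lower without it, which is 66.4% of the first list and 53.0% of the second. Of the genes higher after RU486, 74 (1.48% of all) were also higher without it, 29.4% of the first list and 49.3% of the second. Most genes that were lower after RU486 were thus also lower without it, while 128 higher and 113 lower genes were past 2-fold after RU486 only. Opposite calls were seen for 50 genes that were higher after RU486 and lower without it (0.999%) and for 7 genes the other way round (0.140%). Over all 5005 genes, which are not independent replicates, the genotype differences with and without RU486 had a Pearson correlation of 0.36 and a Spearman correlation of 0.40.

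Heat shock genes were far lower in PGAM5 null adults after RU486. All 7 stress-inducible genes of the Hsp70 and Hsp68 list were past 2-fold, where 7.13% of all genes compared were lower. They encode the chaperones made in large amounts when cytosolic proteins unfold. The list median was -5.59 on the log2(FPKM + 1) scale against -0.04 over all genes. All 7 reached 10 FPKM after RU486 only in wild type, so the count and the median follow in part from the filter. Hsp68 (FBgn0001230, arm 3R) stood at 6.30 FPKM in null and 658 FPKM in wild type after RU486, and 60.7 FPKM in null and 23.1 FPKM in wild type without it. The wild-type library with RU486 was the highest of the 4 and the null library with RU486 the lowest. The ratio after RU486 was 0.00956 (95% interval 0.00754 to 0.0119), a level 105-fold lower in null. The nearly identical Hsp70 copies share fragments, so their separate values are uncertain, but their 6 values together came to 26.7 FPKM in null and 1654 FPKM in wild type after RU486, and to 241 FPKM in null and 128 FPKM in wild type without it. Together they were 62.0-fold lower in null after RU486, and the 6 copies ranged from 60.5-fold for Hsp70Bbb to 67.1-fold for Hsp70Ba. Hsp70Aa, for example, was listed at 8.16 FPKM in null and 501 FPKM in wild type after RU486, and 72.9 FPKM in null and 37.9 FPKM in wild type without it.

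Without RU486 the direction was the opposite, with a list median of 0.92 and with Hsp68 (ratio 2.63) and Hsp70Bb (2.003) past 2-fold higher in null. In larval fat body the list was low everywhere, summing to 40.5 FPKM in null and 26.5 FPKM in wild type with RU486, and 41.8 FPKM in null and 50.6 FPKM in wild type without it. The high values thus belonged to a single library, the wild-type adults that had received RU486 as larvae. How these genes vary between fat bodies of 1 condition was not tested.

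The small heat shock proteins, which hold unfolded proteins in solution, were lower as well. Of the 8 members, 5 were lower and 1 higher in PGAM5 null adults after RU486. Over all genes compared, 7.13% were lower and 5.03% higher. The list median was -3.85 after RU486 and 0.57 without it. Hsp23 and Hsp67Bb reached 10 FPKM after RU486 only in wild type, and CG7409 only in null. The counts therefore follow in part from the filter. Hsp26 (FBgn0001225, arm 3L) was listed at 44.6 FPKM in null and 1021 FPKM in wild type after RU486, and 82.95 FPKM in null and 100.5 FPKM in wild type without it. Its ratio was 0.0436 (95% interval 0.0378 to 0.0498). Hsp22, a small heat shock protein of the mitochondrial matrix and a known FoxO target, was listed at 16.4 FPKM in null and 331 FPKM in wild type after RU486, and 45.9 FPKM in null and 29.7 FPKM in wild type without it. Its ratio was 0.0494 (95% interval 0.0410 to 0.0591). Hsp27 stood at 19.8 FPKM in null and 283 FPKM in wild type after RU486, and 25.9 FPKM in null and 12.1 FPKM in wild type without it. For Hsp22, Hsp26 and Hsp27 the wild-type library with RU486 was the highest of the 4 adult libraries. Hsp23 was lower in null in both pairs, at 6.52 FPKM in null and 171 FPKM in wild type after RU486, and 11.3 FPKM in null and 57.3 FPKM in wild type without it. Hsp67Bb was effectively at 0 FPKM in null against 14.2 FPKM in wild type after RU486, at least 14.5-fold lower. Not every small heat shock gene followed: CG7409, annotated in this family, was higher in null in both pairs (18.6 FPKM in null and 8.49 FPKM in wild type after RU486, and 55.3 FPKM in null and 9.72 FPKM in wild type without it), l(2)efl had a ratio of 1.46 and CG14207 a ratio of 0.995.

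**Figure D2:**
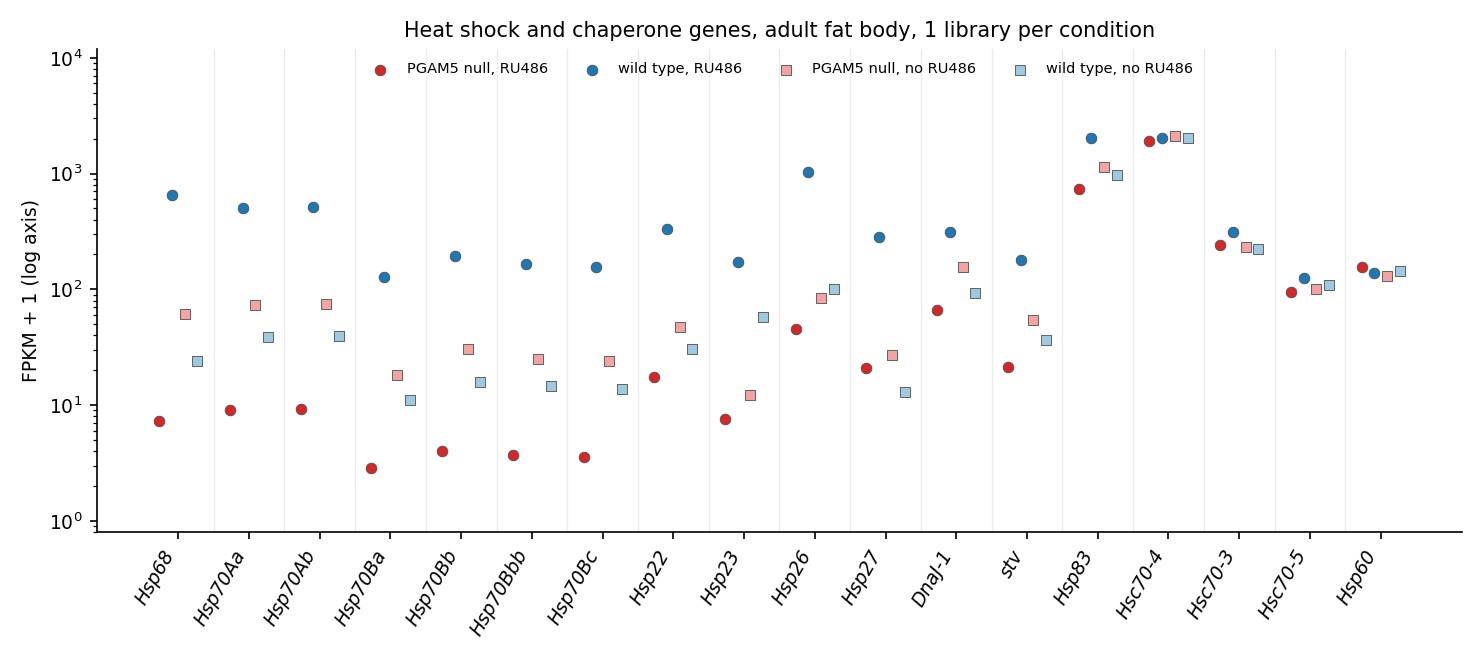
Levels of 18 heat shock and chaperone genes on a log axis (FPKM + 1) in the 4 adult fat body libraries, 1 point per library, with PGAM5 null in red shades, wild type in blue shades, circles for RU486 and squares for no RU486. From Hsp68 to Hsp27 the wild-type library with RU486 (dark blue) is the highest point of each gene, while Hsc70-4, Hsc70-3, Hsc70-5 and Hsp60 at the right have their 4 points close together.

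Among the cytosolic chaperones and co-chaperones, 3 of 17 members were lower in PGAM5 null adults after RU486 and 0 were higher. The share of all genes compared that were lower was 7.13%. The 3 lower members were the partners that are themselves heat-inducible. The BAG-family co-chaperone stv was listed at 20.2 FPKM in null and 177 FPKM in wild type after RU486, and 52.9 FPKM in null and 35.4 FPKM in wild type without it. Its ratio was 0.114 (95% interval 0.101 to 0.128). DnaJ-1, the main inducible Hsp40, stood at 65.8 FPKM in null and 312 FPKM in wild type after RU486, and 153 FPKM in null and 91.1 FPKM in wild type without it. Its ratio was 0.211. Hsp83, the fly Hsp90, stood at 737 FPKM in null and 2009.7 FPKM in wild type after RU486, and 1129 FPKM in null and 968 FPKM in wild type without it. Its ratio was 0.367 (95% interval 0.359 to 0.374). The 3 genes had their highest level in the wild-type library with RU486 and their lowest in the null library with RU486. Constitutive partners were closer to even, with ratios of 0.941 for Hsc70-4, 0.684 for the nucleotide exchange factor Hsc70Cb and 0.684 for the Hsp70-Hsp90 adaptor Hop. Hsf, the transcription factor of the heat shock response, was listed at 15.1 FPKM in null and 17.3 FPKM in wild type after RU486. Its ratio was 0.872. Hsromega, a heat-inducible nuclear RNA that encodes no protein, was listed at 60.7 FPKM in null and 228 FPKM in wild type after RU486, and 134 FPKM in null and 70.1 FPKM in wild type without it (ratio 0.266). The repeated alphagamma-element:CR32865 of the Hsp70 locus stood at 3.29 FPKM in null and 21.9 FPKM in wild type after RU486.

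The mitochondrial and endoplasmic reticulum chaperones stayed closer to even. None of the 17 mitochondrial chaperones and proteases passed 2-fold, with a list median of 0.06. The matrix chaperonin Hsp60 was listed at 156 FPKM in null and 139 FPKM in wild type after RU486, and 129 FPKM in null and 142 FPKM in wild type without it. Its ratio was 1.13. Hsc70-5, the matrix Hsp70, stood at 93.98 FPKM in null and 124 FPKM in wild type after RU486. Its ratio was 0.757. None of the 17 endoplasmic reticulum chaperone genes passed it either (median -0.02), although Ire1, the sensor of unfolded protein in that compartment, came near it at 25.5 FPKM in null and 50.4 FPKM in wild type after RU486, and 41.5 FPKM in null and 32.3 FPKM in wild type without it (ratio 0.506).

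Few members of the FoxO target list differed by 2-fold. Of the 22 members, 3 were lower in PGAM5 null adults after RU486 and 0 higher, where 7.13% of all genes were lower. The lower genes were Hsp22, Obp99b and Pepck. Hsp68, the Hsp70 copies, Hsp26 and Hsp27, also lower, were counted in the heat shock lists and not here. The paper describes some of its persistently induced chaperones as FoxO targets, so this count does not cover all such targets. The list median was -0.19 with RU486 and -0.18 without it. Obp99b (FBgn0039685, arm 3R), an odorant-binding protein made in fat body, was listed at 14.8 FPKM in null and 154 FPKM in wild type after RU486, and 22.9 FPKM in null and 28.5 FPKM in wild type without it. Its ratio was 0.0959 (95% interval 0.0660 to 0.134). The wild-type library with RU486 stood above the other 3. Pepck, the gluconeogenic enzyme phosphoenolpyruvate carboxykinase, was listed at 1132 FPKM in null and 2332 FPKM in wild type after RU486, and 1247 FPKM in null and 1659.7 FPKM in wild type without it. Its ratio was 0.485 (95% interval 0.476 to 0.494). Thor, the translation inhibitor 4E-BP, went the other way without reaching 2-fold, at 938 FPKM in null and 476 FPKM in wild type after RU486, and 792 FPKM in null and 658 FPKM in wild type without it. Its ratio was 1.97 (95% interval 1.85 to 2.08). Spargel, the fly PGC-1 coactivator, was likewise just short of it at 10.4 FPKM in null and 5.24 FPKM in wild type after RU486. The lipase Lip4 had a ratio of 0.514, mitochondrial peroxiredoxin Prx3 1.05 and foxo itself 1.08 (25.7 FPKM in null and 23.7 FPKM in wild type after RU486).

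Relatives of these genes differed among themselves. Of the other odorant-binding proteins of its cluster, Obp99a (1032 FPKM in null and 763 FPKM in wild type after RU486, ratio 1.35) and Obp99c (ratio 0.884) were not past 2-fold. Over all 12 odorant-binding protein genes, 4 were lower and 1 higher, where 7.13% of all genes compared were lower and 5.03% higher. Of the 4 lower odorant-binding genes, 3 were also lower without RU486, such as Obp57a (17.3 FPKM in null and 150.1 FPKM in wild type after RU486, and 26.1 FPKM in null and 101 FPKM in wild type without it). The tetraspanins of the Tsp42E cluster, which are membrane-spanning scaffold proteins, included Tsp42Eb (6.37 FPKM in null and 15.4 FPKM in wild type after RU486, and 18.03 FPKM in null and 189 FPKM in wild type without it) and Tsp42Eq (5.41 FPKM in null and 12.3 FPKM in wild type after RU486, and 8.20 FPKM in null and 39.1 FPKM in wild type without it) as lower genes in both pairs. Tsp42Ed had a ratio of 0.559, Tsp42Ef 0.747 and Tsp42Ee 0.964 after RU486. Tsp29Fb was the tetraspanin with the lowest ratio, at 15.8 FPKM in null and 122 FPKM in wild type after RU486, and 77.7 FPKM in null and 391 FPKM in wild type without it.

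In the insulin and TOR list 1 of 13 members was higher and 0 lower, where 5.03% of all genes compared were higher. The higher gene was Ilp8, a relaxin-like peptide made by growing or damaged tissues, at 11.5 FPKM in null and 1.43 FPKM in wild type after RU486, and 0.654 FPKM in null and 2.22 FPKM in wild type without it. Its ratio was 8.02 (95% interval 3.54 to 20.6). Like the eggshell gene Cp15, Ilp8 was highest in the null library with RU486, and the part of attached tissue in this result was not tested. ImpL2, a secreted protein that binds insulin-like peptides, stood at 247 FPKM in null and 158 FPKM in wild type after RU486, and 311 FPKM in null and 153 FPKM in wild type without it. Ilp6, the fat body's own insulin-like peptide, stood at 49.6 FPKM in null and 74.9 FPKM in wild type after RU486, and 58.4 FPKM in null and 42.8 FPKM in wild type without it. Neither was past 2-fold after RU486. The kinases and regulators Akt1, Tsc1, Rheb, chico and S6k had ratios between 0.810 (Akt1) and 1.14 (chico).

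Several antimicrobial peptide genes were lower. Of 11 members, 4 were lower and 0 higher in PGAM5 null adults after RU486 (median -0.51), where 7.13% of all genes compared were lower. One of the 4, dro5, reached 10 FPKM after RU486 only in wild type. Def (FBgn0010385, arm 2R), which encodes Defensin, was listed at 23.6 FPKM in null and 522 FPKM in wild type after RU486, and 22.7 FPKM in null and 251 FPKM in wild type without it. Its ratio was 0.0452 (95% interval 0.0299 to 0.0634). Drs, the antifungal peptide Drosomycin, stood at 328 FPKM in null and 2191 FPKM in wild type after RU486, and 607 FPKM in null and 1818 FPKM in wild type without it. Its ratio was 0.150. For Def and Drs both null libraries lay below both wild-type libraries. AttB, an Attacin, was lower after RU486 only, at 10.1 FPKM in null and 35.7 FPKM in wild type after RU486, and 8.49 FPKM in null and 11.8 FPKM in wild type without it. dro5, a Drosomycin relative, was listed at 3.51 FPKM in null and 33.1 FPKM in wild type after RU486 and at 17.2 FPKM in null and 6.90 FPKM in wild type without RU486, opposite directions in the pairs. Mtk, which encodes Metchnikowin, was not past 2-fold, at 202 FPKM in null and 123 FPKM in wild type after RU486.

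Some other humoral immune genes were higher. Of 14 members of the immune-induced peptide list, 3 were higher and 0 lower, with a median of 0.62 after RU486 and 0.84 without it. Of all genes compared, 5.03% were higher. IM2, a short secreted peptide of the Toll response, was listed at 1317 FPKM in null and 579 FPKM in wild type after RU486, and 1216 FPKM in null and 557 FPKM in wild type without it. Its ratio was 2.28 (95% interval 2.06 to 2.46). IM23 stood at 32.9 FPKM in null and 3.43 FPKM in wild type after RU486, and 20.6 FPKM in null and 4.24 FPKM in wild type without it (ratio 9.58). Both were higher in null with and without RU486, and CG15065 was higher after RU486 only (437 FPKM in null and 177 FPKM in wild type after RU486, and 278 FPKM in null and 215 FPKM in wild type without it). In the Toll list 1 gene of 19 was higher, near the share over all genes compared, and the list median was -0.01. This was the serine protease spirit, at 11.8 FPKM in null and 3.93 FPKM in wild type after RU486, and 24.6 FPKM in null and 3.25 FPKM in wild type without it. The Imd list held 3 higher genes of 17, set against 5.03% of all genes compared. All 3 were peptidoglycan-degrading PGRP-SC genes that the gut also makes. They reached 10 FPKM after RU486 only in null, so the count follows in part from the filter. PGRP-SC2 was listed at 16.4 FPKM in null and 2.99 FPKM in wild type after RU486, and 2.80 FPKM in null and 69.2 FPKM in wild type without it. The part of gut RNA in that result was not tested.

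The Turandot genes encode secreted stress proteins induced through JAK/STAT and other stress signals. They made up the lower genes of their list, with 4 of its 8 members lower and 0 higher in PGAM5 null adults after RU486. The share of all genes compared that were lower was 7.13%. TotX reached 10 FPKM after RU486 only in wild type. TotA (FBgn0028396, arm 3R) was listed at 107 FPKM in null and 286 FPKM in wild type after RU486, and 152 FPKM in null and 344 FPKM in wild type without it. Its ratio was 0.374 (95% interval 0.322 to 0.428). TotC stood at 61.8 FPKM in null and 174 FPKM in wild type after RU486, and 79.3 FPKM in null and 165 FPKM in wild type without it. TotX, with the lowest ratio of the family (0.218), stood at 8.40 FPKM in null and 38.5 FPKM in wild type after RU486. For TotA, TotC and TotX the 2 null libraries were below the 2 wild-type libraries, while TotM was lower in null after RU486 only (87.3 FPKM in null and 192 FPKM in wild type after RU486, and 128 FPKM in null and 94.7 FPKM in wild type without it).

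**Figure D3:**
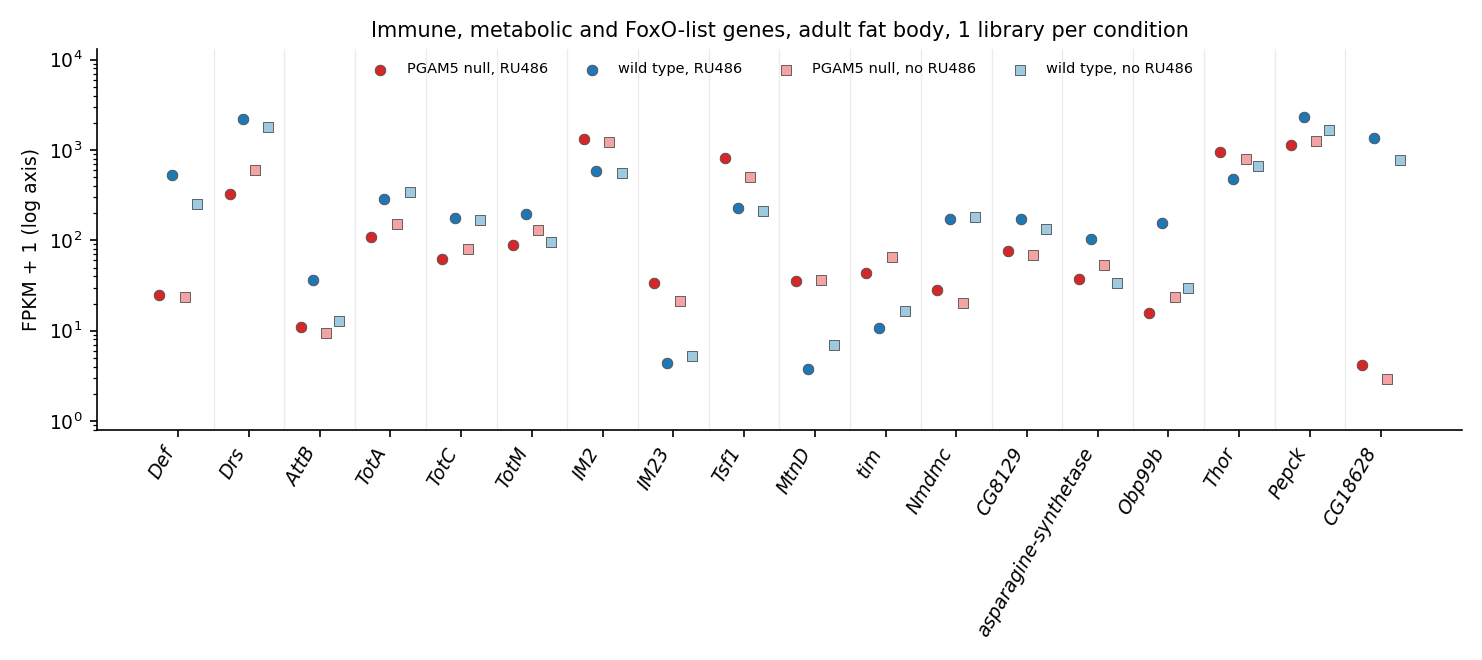
Levels of 18 immune, metabolic and FoxO-list genes on a log axis (FPKM + 1) in the 4 adult fat body libraries, 1 point per library, with PGAM5 null in red shades, wild type in blue shades, circles for RU486 and squares for no RU486. Def, Drs, TotA, TotC, Nmdmc and CG18628 have both null points below both wild-type points, IM2, IM23, Tsf1, MtnD and tim have them above, and Obp99b is high in the wild-type library with RU486.

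The kinase genes of the cascade that links PGAM5 to FoxO were close to even after RU486 at the RNA level, which does not measure kinase activity. Among 9 JNK pathway members only Mmp1, a matrix metalloproteinase and JNK target, was lower, where 7.13% of all genes compared were lower. Mmp1 was listed at 7.01 FPKM in null and 14.6 FPKM in wild type after RU486, and 8.79 FPKM in null and 35.2 FPKM in wild type without it. The JNK phosphatase and target puc was listed at 13.98 FPKM in null and 22.3 FPKM in wild type after RU486, and 17.8 FPKM in null and 33.7 FPKM in wild type without it. Its ratio was 0.626. The list median was -0.12 after RU486 and -0.40 without it. The JNK gene bsk had a ratio of 1.002, its kinase hep 0.911 and the ASK1 gene Pk92B 0.970. In the list for mitophagy and mitochondrial dynamics Pgam5 was the only called gene of 11, with ratios of 0.894 for the kinase Pink1, 0.875 for the fission dynamin Drp1 and 0.934 for the mitofusin Marf.

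Of 21 genes for ATF4, serine and one-carbon metabolism, 3 were lower in PGAM5 null adults after RU486 and 0 higher. Of all genes compared 7.13% were lower, and the list median was 0.05. Nmdmc (FBgn0010222, arm 3R), the mitochondrial folate enzyme that supplies one-carbon units, was listed at 27.3 FPKM in null and 172 FPKM in wild type after RU486, and 19.1 FPKM in null and 178 FPKM in wild type without it. Its ratio was 0.158 (95% interval 0.134 to 0.185). Both null libraries were far below both wild-type libraries. asparagine-synthetase, a classical ATF4 target, was lower after RU486 only, at 36.4 FPKM in null and 103 FPKM in wild type after RU486, and 51.9 FPKM in null and 32.5 FPKM in wild type without it. CG8129 stood at 75.002 FPKM in null and 170.3 FPKM in wild type after RU486, and 68.01 FPKM in null and 133 FPKM in wild type without it. crc, the gene for fly ATF4, had a ratio of 1.14, and the serine pathway genes CG6287, CG11899 and aay had ratios of 1.08, 1.07 and 0.752.

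Genes of the Malpighian tubule, the fly's excretory organ, were also lower together. Of 12 listed genes, 10 reached 10 FPKM, and 9 of these were lower in PGAM5 null adults after RU486 (median -5.19), as were 10 of 10 without it (median -2.19). Members such as Uro and NaPi-T reached 10 FPKM after RU486 only in wild type, so the count after RU486 follows in part from the filter. In such bulk samples, fewer cells of a type and less RNA per cell cannot be told apart. Uro (FBgn0003961, arm 2L), urate oxidase, which is made almost wholly in the tubule, was listed at 4.17 FPKM in null and 460.1 FPKM in wild type after RU486, and 82.8 FPKM in null and 589 FPKM in wild type without it. Its ratio was 0.00907 (95% interval 0.00608 to 0.0133). The phosphate transporter gene NaPi-T stood at 0.465 FPKM in null and 124 FPKM in wild type after RU486, and 30.2 FPKM in null and 155 FPKM in wild type without it. The inward rectifier potassium channel Irk3 stood at 0.785 FPKM in null and 33.9 FPKM in wild type after RU486, and 20.7 FPKM in null and 50.1 FPKM in wild type without it. Irk2 (13.9 FPKM in null and 38.4 FPKM in wild type after RU486) was 2.76-fold lower and the chloride channel gene Best2 (5.60 FPKM in null and 10.2 FPKM in wild type after RU486) was the member not past 2-fold. For Uro, NaPi-T and Irk3 the null library with RU486 was the lowest of the 4 adult libraries, and both null libraries lay below both wild-type libraries.

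Some transporter and detoxification genes were lower. For the counts in these families, 7.13% of all genes compared were lower and 5.03% higher after RU486, and 8.93% were lower without it. The organic anion transporter Oatp58Db was at 0 FPKM in null against 31.4 FPKM in wild type after RU486, at least 123-fold lower. The vitamin transporter Smvt was listed at 0.711 FPKM in null and 102 FPKM in wild type after RU486, and 9.97 FPKM in null and 104 FPKM in wild type without it. Subunits of the vacuolar proton ATPase, which energizes tubule transport, gave 2 lower genes of 18 after RU486 and 12 without it, with medians of -0.67 and -1.13. Vha100-2 was listed at 42.8 FPKM in null and 112 FPKM in wild type after RU486, and 42.5 FPKM in null and 133 FPKM in wild type without it. Cytochrome P450 genes gave 13 lower and 1 higher of 51 (median -0.54). The lowest was Cyp6a18, at 0 FPKM in null against 29.1 FPKM in wild type after RU486. Cyp6a18, Cyp6a8, Cyp4e3 and Cyp4p3 were among the lower ones and reached 10 FPKM after RU486 only in wild type. The P450 count therefore follows in part from the filter. Of the P450 genes that were lower, 7 were also lower without RU486, and 6 were lower after RU486 only, among them Cyp6w1 (31.1 FPKM in null and 77.1 FPKM in wild type after RU486, and 71.8 FPKM in null and 52.3 FPKM in wild type without it) and Cyp6a13 (21.1 FPKM in null and 46.4 FPKM in wild type after RU486, and 39.4 FPKM in null and 34.1 FPKM in wild type without it). Glutathione transferases gave 4 lower genes of 9, including GstE10 of the tubule list at 0.455 FPKM in null and 49.1 FPKM in wild type after RU486. GstE1, the most abundant of the lower ones, stood at 84.7 FPKM in null and 174 FPKM in wild type after RU486, and 94.4 FPKM in null and 82.7 FPKM in wild type without it. UDP-glycosyltransferases gave 2 of 6. The part of tubule RNA in these results was not tested.

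Eggshell and germline genes lay on the opposite side. Of 32 listed genes, 20 reached 10 FPKM, and 19 of these were higher in PGAM5 null adults after RU486. The median was 3.61, against 0.61 for the same genes without RU486. Members such as osk and yl reached 10 FPKM only in the null library, the side where they were high. The count and the 2 medians therefore follow in part from the filter. Cp15 (FBgn0000355, arm 3L), a chorion protein of the late eggshell, was listed at 3683 FPKM in null and 4.60 FPKM in wild type after RU486, and 9.87 FPKM in null and 7.69 FPKM in wild type without it. Its ratio was 801 (95% interval 438 to 1571). The vitelline membrane gene Vm26Aa stood at 439.7 FPKM in null and 14.6 FPKM in wild type after RU486, and 22.8 FPKM in null and 1.98 FPKM in wild type without it. Germline genes were higher too, with osk, which patterns the egg's posterior pole, at 44.2 FPKM in null and 1.90 FPKM in wild type after RU486, and 1.95 FPKM in null and 12.6 FPKM in wild type without it. The mitotic cyclin CycB stood at 59.7 FPKM in null and 12.2 FPKM in wild type after RU486, and 10.005 FPKM in null and 10.97 FPKM in wild type without it. The null library with RU486 was the highest of the 4 for these genes. The yolk protein receptor gene yl (55.3 FPKM in null and 3.59 FPKM in wild type after RU486), the germline thioredoxin dhd (169 FPKM in null and 32.3 FPKM in wild type after RU486) and the ovary-enriched ribosomal protein gene RpS5b (125 FPKM in null and 9.01 FPKM in wild type after RU486) shared the direction. BicD, with a ratio of 1.19, was the member not past 2-fold. The part of attached ovary in these results was not tested.

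Digestive enzyme genes of the gut showed opposite genotype differences in the pairs. Of 49 listed genes, 17 reached 10 FPKM after RU486, and 11 of them were higher and 1 lower in PGAM5 null (median 1.96), while without RU486 15 of the 17 were lower in null (median -4.04). Members such as Jon99Cii reached 10 FPKM after RU486 only in null, so the count after RU486 follows in part from the filter. Jon99Cii, a serine protease of the midgut, was listed at 138 FPKM in null and 1.72 FPKM in wild type after RU486, and 8.60 FPKM in null and 582 FPKM in wild type without it. alphaTry, a trypsin, stood at 31.3 FPKM in null and 11.8 FPKM in wild type after RU486, and 13.6 FPKM in null and 1674 FPKM in wild type without it. The wild-type library without RU486 was the highest for both, and the null library with RU486 the next. The list summed to 831 FPKM in null and 215 FPKM in wild type after RU486, and to 254.7 FPKM in null and 5955 FPKM in wild type without it.

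**Figure D4:**
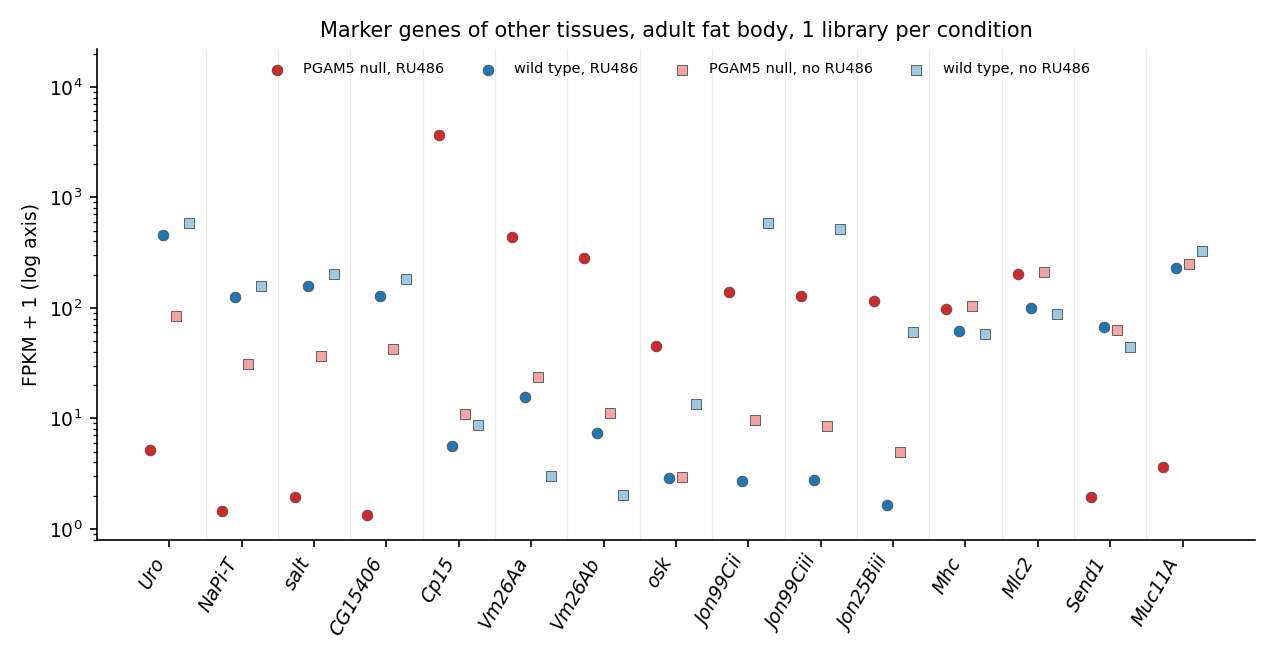
Levels of 15 marker genes of Malpighian tubule, eggshell and germline, gut, muscle and spermatheca on a log axis (FPKM + 1) in the 4 adult fat body libraries, 1 point per library, with PGAM5 null in red shades, wild type in blue shades, circles for RU486 and squares for no RU486. The null library with RU486 (dark red) is the lowest point for the tubule genes Uro to CG15406 and for Send1 and Muc11A, and the highest for the eggshell and germline genes Cp15 to osk.

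Some muscle genes and 1 member of the hemocyte list were higher. Of 16 muscle members, 4 were higher after RU486 and 10 without it, with medians of 0.81 and 1.03. The myosin light chain gene Mlc2 was listed at 203 FPKM in null and 98.98 FPKM in wild type after RU486, and 212 FPKM in null and 87.9 FPKM in wild type without it. The actin gene Act79B stood at 15.8 FPKM in null and 3.04 FPKM in wild type after RU486, and 53.5 FPKM in null and 5.11 FPKM in wild type without it. The muscle myosin gene Mhc, at 97.5 FPKM in null and 61.2 FPKM in wild type after RU486, was not past 2-fold. Of 10 hemocyte members only PO45, a prophenoloxidase, was higher (79.6 FPKM in null and 29.9 FPKM in wild type after RU486, and 58.98 FPKM in null and 44.001 FPKM in wild type without it), although the median was 0.77, with ratios of 1.81 for the hemocyte marker Hml, 1.92 for Pxn and 1.71 and 1.59 for the collagen IV chains vkg and Cg25C. The spermathecal protease gene Send1 was lower in null after RU486, at 0.928 FPKM in null and 65.9 FPKM in wild type after RU486, and 61.6 FPKM in null and 43.5 FPKM in wild type without it. Send2 was lower in both pairs, at 0.815 FPKM in null and 11.4 FPKM in wild type after RU486, and 4.29 FPKM in null and 28.7 FPKM in wild type without it. The mucin gene Muc11A stood at 2.66 FPKM in null and 228 FPKM in wild type after RU486, and 249 FPKM in null and 327 FPKM in wild type without it. The part of attached muscle, blood cells and reproductive tract in these results was not tested.

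The fat body's own genes differed in both directions. Of 15 members, 2 were higher and 4 lower in PGAM5 null adults after RU486 (median -0.16). Over all genes compared, 5.03% were higher and 7.13% lower. Yp3 (FBgn0004047, X chromosome), a yolk protein that the fat body secretes for the eggs, was listed at 32901 FPKM in null and 14257 FPKM in wild type after RU486, and 21221 FPKM in null and 12729 FPKM in wild type without it. Its ratio was 2.31 (95% interval 2.29 to 2.32), the only yolk protein gene past 2-fold. Yp1 (41899 FPKM in null and 26384 FPKM in wild type after RU486, ratio 1.59) and Yp2 (38916 FPKM in null and 22391 FPKM in wild type after RU486, ratio 1.74) were on the same side. The 3 yolk protein genes were the most abundant transcripts of the list in each of the 4 libraries. Tsf1, the iron carrier transferrin, was higher in both pairs, at 807 FPKM in null and 229 FPKM in wild type after RU486, and 507 FPKM in null and 210.1 FPKM in wild type without it. Its ratio was 3.52 (95% interval 3.39 to 3.66).

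The lower fat body genes were storage proteins of the larva. Lsp1gamma stood at 0.139 FPKM in null and 19.8 FPKM in wild type after RU486, and 0.129 FPKM in null and 4.69 FPKM in wild type without it. Lsp1beta was listed at 2.79 FPKM in null and 24.2 FPKM in wild type after RU486, and 1.36 FPKM in null and 5.81 FPKM in wild type without it. Lsp2 was listed at 13.4 FPKM in null and 27.1 FPKM in wild type after RU486, and 7.39 FPKM in null and 6.35 FPKM in wild type without it. Fbp2 was at 0 FPKM in null against 16.7 FPKM in wild type after RU486, at least 25.04-fold lower. All 4 were highest in the wild-type library with RU486. The lipid droplet proteins Lsd-1 (ratio 0.884) and Lsd-2 (0.760), the lipoprotein Rfabg (1.20) and the ferritin chains Fer1HCH (0.776) and Fer2LCH (0.897) were not past 2-fold.

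Core metabolism held few called genes. None passed 2-fold among 13 glycolysis, 19 TCA cycle and 41 oxidative phosphorylation genes, whose medians were 0.02, -0.23 and -0.15. Nor did any of 28 proteasome subunits, 17 aminoacyl-tRNA synthetases, 21 redox enzymes or 11 autophagy genes, where ref(2)P, the selective autophagy receptor p62, had a ratio of 0.571 (347 FPKM in null and 608 FPKM in wild type after RU486). In lipid metabolism 1 of 20 genes of fat mobilization was lower, the lipase gene CG5966 at 36.7 FPKM in null and 101 FPKM in wild type after RU486, and 50.1 FPKM in null and 65.7 FPKM in wild type without it. Of 24 fatty acid synthesis genes 1 was higher, the elongase gene CG5326 at 12.2 FPKM in null and 1.68 FPKM in wild type after RU486. Neither share exceeded that over all genes compared, 7.13% lower and 5.03% higher. Brummer (bmm), the main triglyceride lipase, had a ratio of 0.760, and the acetyl-CoA carboxylase ACC had 0.887. Among 12 sugar enzymes 1 was lower, near the share of 7.13% over all genes compared. This was CG9485, the glycogen debranching enzyme, at 54.6 FPKM in null and 118 FPKM in wild type after RU486, and 66.9 FPKM in null and 84.9 FPKM in wild type without it. Glycogen phosphorylase GlyP had a ratio of 0.663. Of 85 cytosolic ribosomal protein genes 1 was higher, the RpS5b already described, and of 72 mitochondrial ones 2 were, mRpL32 (20.99 FPKM in null and 10.1 FPKM in wild type after RU486) and mRpS6 (15.6 FPKM in null and 7.52 FPKM in wild type after RU486). Both ribosomal shares were below the 5.03% over all genes compared.

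**Figure D5:**
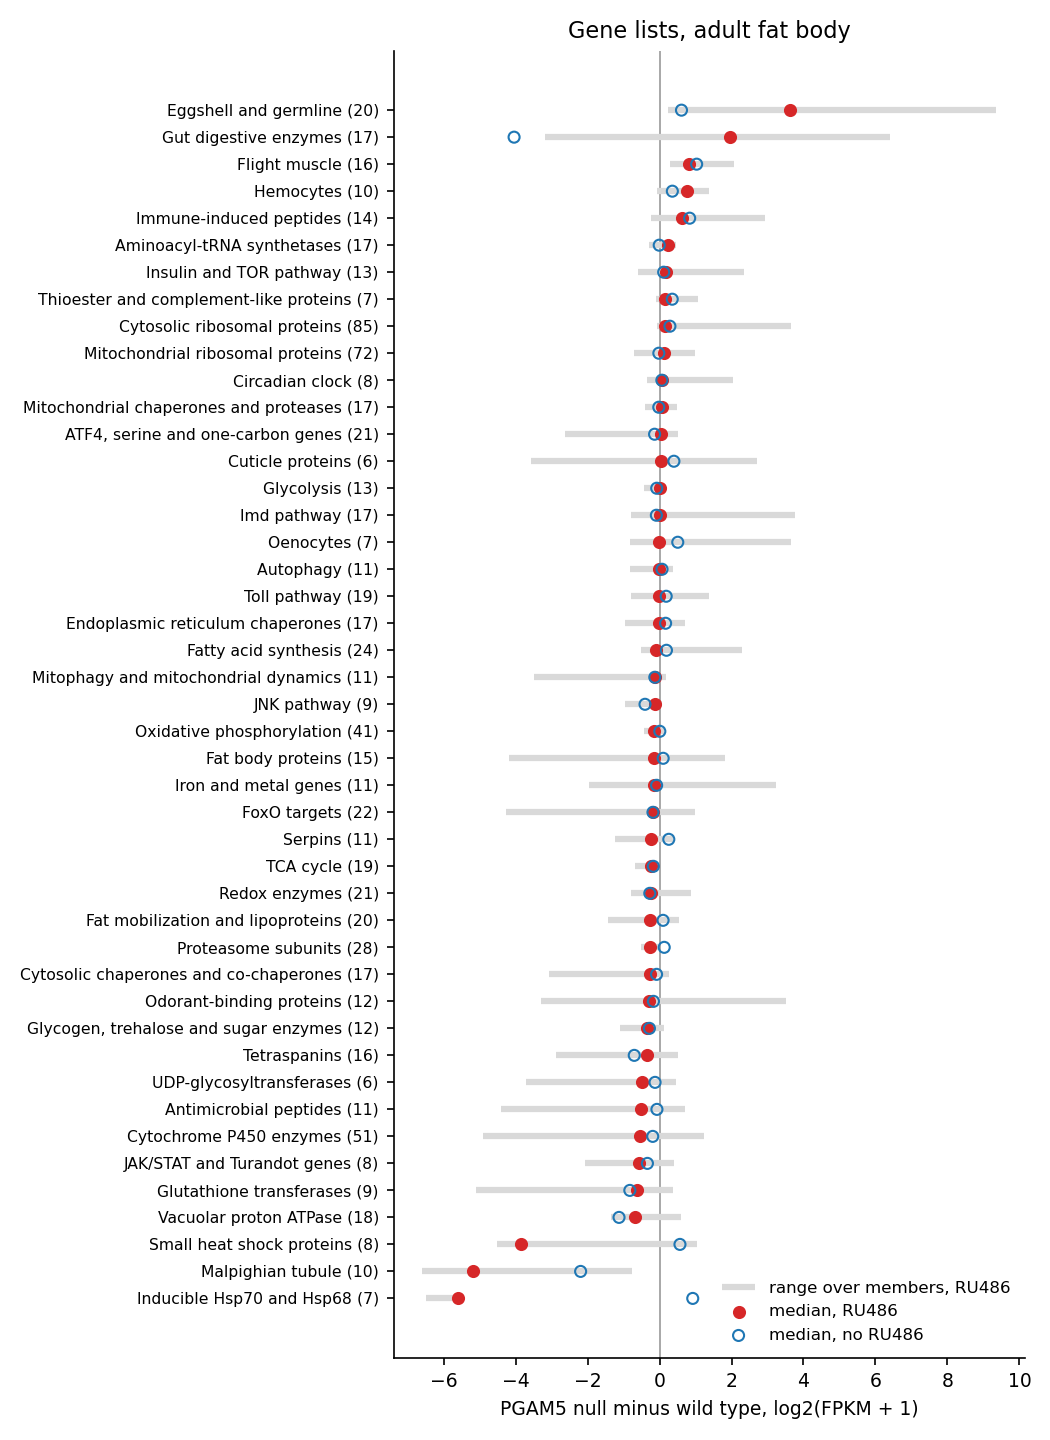
Gene lists in adult fat body, with the number of members of 10 FPKM or more after RU486 in brackets, plotted as the difference PGAM5 null minus wild type in log2(FPKM + 1): the filled red point is the list median after RU486, the grey bar the range over members, and the open blue point the median without RU486. Eggshell and germline (3.61) and gut (1.96) lie farthest to the right after RU486, and inducible Hsp70 and Hsp68 (-5.59), Malpighian tubule (-5.19) and small heat shock proteins (-3.85) farthest to the left.

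Some genes separated the genotypes whatever the drug. CG18628, whose function is not annotated here, was listed at 3.13 FPKM in null and 1345 FPKM in wild type after RU486, and 1.95 FPKM in null and 783 FPKM in wild type without it. Both null libraries lay below both wild-type libraries. CG7443 stood at 2.71 FPKM in null and 158 FPKM in wild type after RU486, and 1.08 FPKM in null and 95.1 FPKM in wild type without it. CG43112 stood at 0 FPKM in null and 96.2 FPKM in wild type after RU486, and 0.939 FPKM in null and 55.7 FPKM in wild type without it. On the high side, the metallothioneins MtnD (34.8 FPKM in null and 2.79 FPKM in wild type after RU486, and 35.7 FPKM in null and 6.02 FPKM in wild type without it) and MtnE (17.5 FPKM in null and 1.66 FPKM in wild type after RU486, and 19.01 FPKM in null and 2.69 FPKM in wild type without it), which bind copper and other metals, were higher in null in both pairs, whereas MtnA, the most abundant of them, had a ratio of 0.925. The zinc transporter ZnT35C of the tubule was lower in both (6.86 FPKM in null and 29.7 FPKM in wild type after RU486, and 7.22 FPKM in null and 32.7 FPKM in wild type without it). The clock gene tim, whose product represses its own transcription each day, was listed at 42.9 FPKM in null and 9.65 FPKM in wild type after RU486, and 64.5 FPKM in null and 15.6 FPKM in wild type without it (ratio 4.45, 95% interval 3.94 to 5.03). vri, another clock-controlled repressor, stood at 28.5 FPKM in null and 17.1 FPKM in wild type after RU486, and 38.4 FPKM in null and 17.3 FPKM in wild type without it. None of the other members of the 8-gene clock list was past 2-fold after RU486.

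Across stages, 21 genes (0.420%) were 3-fold or more lower in PGAM5 null in all 4 genotype comparisons of fat body, larval and adult, with and without RU486, and 1 (0.0200%) was 3-fold or more higher in all 4. The higher gene was CG31928, at 11.8 FPKM in null and 0.121 FPKM in wild type after RU486 in adults, but at 0.219 FPKM in null and 0 FPKM in wild-type larvae with RU486, too low for a fold. Of the 21 lower genes, 5 had under 1 FPKM in wild type in at least 1 larval comparison, where values are likewise too low for a fold. The lower genes included Pgam5. CG4325, which like Pgam5 lies on the X chromosome, was listed at 0.801 FPKM in null and 12.3 FPKM in wild type after RU486, and 0.869 FPKM in null and 8.68 FPKM in wild type without it. Larvae with RU486 had 3.23 FPKM in null and 51.9 FPKM in wild type. Several others encode transporters or detoxifying enzymes, among them Smvt, Oatp58Db, salt, the pigment-precursor transporter st, Cyp6a18 and Ugt35b. In adults salt was listed at 0.923 FPKM in null and 158 FPKM in wild type after RU486, and 36.1 FPKM in null and 203 FPKM in wild type without it. In larvae with RU486 it was listed at 2.53 FPKM in null and 19.3 FPKM in wild type. Smvt, at 2.54 FPKM in larval null and 16.2 FPKM in larval wild type with RU486, followed the same order. The Malpighian tubule list had a median of -1.28 in the larvae with RU486, so its direction was the same at both stages.

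By position, arm 2R held the largest share of higher genes, 82 of 1070 (7.66%), against 3.72% to 4.98% for arms 2L, 3L, 3R and X, and the lower genes made up 6.13% to 8.32% of these 5 arms. On the X chromosome, which carries Pgam5, 34 of 767 genes were higher and 47 lower. Very short genes, many of them on 2R, made up part of these counts. In all, 88 members were small RNAs, 5S rRNA copies or other genes under 200 bases, and 61 of these were higher and 11 lower, with 26 of the 33 5S rRNA copies among the higher ones. For such genes FPKM depends on a length close to or under that of a fragment. The 11 loci of tRNA:K2, near-identical copies that share fragments, were all members. tRNA:K2:42Aa was listed at 371 FPKM in null and at 0 FPKM in wild type after RU486, and at 0 FPKM in both libraries without it. The single largest listed difference, snoRNA:Me28S-G2703c at 1361 FPKM in null and 0 FPKM in the 3 other adult libraries, belongs to this class, and mir-4948 showed the reverse, 0 FPKM in null and 454 FPKM in wild type after RU486. No fold is given for them.

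Beyond the lists, the highest ratios among protein-coding genes after RU486 belonged to CG1678 (1409.9 FPKM in null and 1.49 FPKM in wild type after RU486, and 26.7 FPKM in null and 0.804 FPKM in wild type without it), CG16826 (1194 FPKM in null and 1.997 FPKM in wild type after RU486, and 30.9 FPKM in null and 0.464 FPKM in wild type without it) and lcs (782 FPKM in null and 0.714 FPKM in wild type after RU486). Each was highest in the null library with RU486. The lowest included CG17752 (0.840 FPKM in null and 172 FPKM in wild type after RU486, and 37.6 FPKM in null and 227 FPKM in wild type without it) and CG3290 (0.611 FPKM in null and 163 FPKM in wild type after RU486, and 9.17 FPKM in null and 217 FPKM in wild type without it). Both had their lowest level in the null library with RU486. At the edge of the filter, Aats-ala-m (7.97 FPKM in null and 10.01 FPKM in wild type) and RPA2 (10.01 FPKM in null and 3.11 FPKM in wild type) were just inside, and CG1172 (8.70 FPKM in null and 9.99 FPKM in wild type) and Rassf (9.97 FPKM in null and 7.30 FPKM in wild type) were just outside.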

How the data were processed

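RNA from hand-dissected fat bodies of pooled animals was sequenced by the study on an Illumina MiSeq from TruSeq RNA libraries. The authors mapped reads to Drosophila genome release 5.2 with TopHat and Bowtie and computed expression with Cufflinks (versions not given in the sources used here), and the deposited values are FPKM for 15603 genes, with no counts. Multi-mapping reads can be split between near-identical genes, and whether strand was used is not given. Values were used as deposited. Genes of 10 FPKM or more in either library were compared by their FPKM ratio, and 2-fold or more was called. Lists were described by counts and by medians of differences in log2(FPKM + 1).

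Library depth came from the spacing of low FPKM values, using transcript lengths of the reference annotation (BDGP6, used for names, chromosome arms, neighbours and lengths only, with 14927 identifiers matched). Of low values, up to 5.50 fragments, 78.1% to 82.3% fell within 0.1 of a whole fragment in the 4 adult libraries. Exact intervals at 95% and the floor of 3 fragments cover counting error only. Genes without a matched transcript, or whose transcript was no more than 150 bases longer than the estimated fragment length, have no interval. For genes with several transcripts the median annotated length was used.

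Members and the 50 gene lists (1363 symbols, of which 7 were unmatched) were chosen with earlier results of these data known. Genes were named by a rule: Pgam5 and its neighbours, genes and families named in the study's fat body text, the 10 highest and lowest ratios, up to 5 members of each list, the 10 largest differences between the pairs in each direction, and genes past 3-fold in all 4 fat body comparisons. Further list members are given for comparison, and CG7443, Hsromega, alphagamma-element:CR32865, Send1, Send2, dhd, Muc11A, Mur18B, CG14292, CycA, CG5791, osk, Vm26Aa, Irk3, BicC and yl were chosen after their values were seen. Scripts were tested on simulated data and run with scipy 1.17.1, pandas 2.3.3, matplotlib 3.10.9 and numpy 2.4.6 under Python 3.11.15. Alternatives varied the filter, fold, pseudocount, scaling and the genes left out. Thorax libraries were not used here.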

Additional observations from a re-analysis of the deposited data

Results flagged for a closer look

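Each result below had a PGAM5 null over wild-type difference past 2-fold in adults after RU486 and past 2-fold the other way in adults without RU486 or in larvae with RU486. With 1 library per condition, the difference between these differences was not tested. Values are null minus wild type on the log2(FPKM + 1) scale.

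The heat shock genes Hsp68, Hsp27 and Hsp70Bb were lower in null adults after RU486 and higher in null adults without it. Hsp68 differed by 1.36 without RU486 and by 1.23 in larvae with RU486, Hsp27 by 1.05 and Hsp70Bb by 0.96 without RU486. Hsp23 and Hsp67Bb were instead lower in null in both adult pairs. Digestive genes, and the germline genes osk and RpS5b, were higher in null adults after RU486 and lower without it. The gut list had a median of -4.04 without RU486, Jon99Cii stood at -5.92, alphaTry at -6.85 (-3.28 in larvae with RU486), PGRP-SC2 at -4.21 (-0.96 in larvae with RU486), osk at -2.20 and RpS5b at -1.66.

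Immune and stress peptide genes were lower in null adults after RU486 and higher in null larvae with RU486, by 5.39 for Drs, 3.98 for AttB, 2.72 for dro5 and 2.08 for TotC, and dro5 was also higher without RU486 in adults, by 1.20. Drs had 1342 FPKM in null and 30.95 FPKM in wild-type larvae with RU486, against 419 FPKM in null and 411 FPKM in wild-type larvae without it. The metallothioneins MtnD (-2.83) and MtnE (-2.15) were lower in null larvae with RU486, and Irk2 was higher there (1.22). Lsp1beta differed by 15.61 in larvae with RU486, where it was listed at 49866 FPKM in null and 0 FPKM in wild type, while its partner Lsp1gamma was listed at 60298 FPKM in null and 47666 FPKM in wild type.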

How the results depend on the processing

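Of the genes compared, 252 were higher, 357 lower and 311 past 2-fold in the same direction in both adult pairs. With a filter of 30 FPKM these counts were 112, 198 and 168, with no filter and a log2(FPKM + 1) difference of 1 they were 545, 576 and 471, and at 1.5-fold they were 467, 624 and 548. At 3-fold, 147 genes were higher and 190 shared a direction, and with the filter on the wild-type library alone 73 were higher. Upper quartile scaling shifted all genes by 0.14 on the log2 scale and gave 308 higher and 311 lower genes, and median scaling shifted them by 0.04. A pseudocount of 5 left 177 higher and 277 lower genes.

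Some alternatives were chosen after the data were seen. Leaving out genes also past 2-fold the same way without RU486 left 178 higher and 120 lower genes. Without the tubule, gut, eggshell, muscle and hemocyte lists 217 were higher and 347 lower, and without very short genes 191 and 346. No named ratio past 2-fold changed direction, but the pseudocounts and small scalings tried could not have reversed one. Of the 48 list medians, 10 changed sign under at least 1 alternative, all of them between -0.16 and 0.06 as reported. The 5 list medians of 1 or more in either direction stayed so under every alternative, and of 147 named genes past 2-fold, 142 stayed so under both scalings and 137 with a pseudocount of 5. The list medians already use a pseudocount of 1, so that alternative is their reported setting. Leaving out a replicate was not possible. No paired analysis was possible because each condition has 1 library and the labels give no replicate number. At these depths a gene near 10 FPKM rests on a small number of fragments, and differences between animals of 1 condition were not measured.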

Other observations

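Further lists and single genes gave these values in PGAM5 null and wild-type adults. Of 6 cuticle protein genes, 1 was higher and 1 lower after RU486, with a median of 0.05. Over all genes compared, 5.03% were higher and 7.13% lower. Cpr49Ae was the higher one, at 165 FPKM in null and 24.3 FPKM in wild type after RU486, and 54.5 FPKM in null and 22.3 FPKM in wild type without it. Pcp was at 0 FPKM in null against 10.9 FPKM in wild type after RU486. Of 11 serpins, which inhibit the proteases of clotting and immune cascades, 1 was lower, where 7.13% of all genes compared were, and the median was -0.22. The lower one, Spn5, stood at 24.4 FPKM in null and 59.4 FPKM in wild type after RU486, and 35.7 FPKM in null and 43.2 FPKM in wild type without it, a ratio of 0.411.

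The oenocytes are hydrocarbon-making cells that lie beside the abdominal fat body. Their list gave 2 higher and 0 lower genes of 7, where 5.03% of all genes compared were higher. The list median was -0.0015. The higher ones were the elongase gene bond (15.02 FPKM in null and 5.81 FPKM in wild type after RU486, and 7.38 FPKM in null and 7.15 FPKM in wild type without it) and CG13114 (22.2 FPKM in null and 0.837 FPKM in wild type after RU486, and 0.443 FPKM in null and 0.227 FPKM in wild type without it). Their most abundant gene, Cyp4g1, which makes cuticular hydrocarbons, had a ratio of 0.999 after RU486 and 2.20 without it, and the desaturase gene Fad2 was at 2498 FPKM in null and 4429 FPKM in wild type after RU486, a ratio of 0.564. In the list of thioester and complement-like proteins, 1 of 7 was higher, set against the same 5.03%. This was the receptor gene nimB1, at 29.96 FPKM in null and 13.7 FPKM in wild type after RU486, and 18.5 FPKM in null and 14.3 FPKM in wild type without it.

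Some genes outside the lists were chosen after their values were seen. Mur18B was lower, at 13.05 FPKM in null and 827 FPKM in wild type after RU486, and 699 FPKM in null and 1638 FPKM in wild type without it. CG14292 was lower too, at 15.5 FPKM in null and 729 FPKM in wild type after RU486, and 548 FPKM in null and 1324 FPKM in wild type without it. Both were lowest in the null library with RU486. The cyclin gene CycA was higher after RU486, at 26.2 FPKM in null and 5.08 FPKM in wild type after RU486, and 5.29 FPKM in null and 6.53 FPKM in wild type without it. BicC, a gene of oogenesis, was higher at 21.7 FPKM in null and 4.15 FPKM in wild type after RU486, and 3.11 FPKM in null and 3.33 FPKM in wild type without it. CG5791, whose function is not annotated here, was higher in both pairs, at 307 FPKM in null and 37.4 FPKM in wild type after RU486, and 111 FPKM in null and 40.5 FPKM in wild type without it.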
